A study of Mus musculus with 6 samples.

Results

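Inflammatory cytokines are secreted proteins through which blood and tissue cells start, shape or limit inflammation. The transcripts of 10 of them were followed in neutrophil progenitors: Il6, Lif, Osm, Tnf, Csf1, Il4, Il13, Il1a, Il1b and Tgfb1. They were taken by gene symbol from the annotation of the array. Each had 1 probe set, so 10 of the 22206 probe sets, and 10 of the 19505 genes with a symbol, are described. The cells were mouse HoxB8 neutrophil progenitors, which are held at an immature stage by the transcription factor Hoxb8. They were kept for 1 day in a differentiation medium that contained stem cell factor (SCF) supernatant. The K313 group (3 arrays) expressed the K313 form of C/EBPα, and the WT group (3 arrays) expressed wild-type C/EBPα. Total RNA was hybridised to Affymetrix Mouse Clariom S arrays. The labels name no clone, promoter or vector for either form, and they leave unstated whether replicates came from separate cultures. A p-value here reflects how far these 6 samples scatter, and that scatter may be only technical.

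The cytokines act through receptors that start a few shared routes. IL-1 and TNF receptors activate NF-kB, the IL-6 family (Il6, Lif, Osm) signals through the shared receptor chain gp130 and STAT3, IL-4 and IL-13 through STAT6, and TGF-β through SMAD proteins. Csf1 encodes macrophage colony-stimulating factor, the growth factor of monocytes and macrophages. Most of these genes are transcribed at a low rate in resting myeloid cells and rise after stimulation; mast cells and basophils are known sources of IL-4, IL-13, TNF and IL-6. C/EBPβ, a relative of C/EBPα, was described as a factor that binds the Il6 promoter.

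All values are log2 expression values made by the authors with RMA, which brings arrays to a common distribution, so that a change in total RNA per cell is not seen. No detection call was used, and a level near 5 or below (array medians were 5.01 to 5.13) cannot be told from background. In bulk RNA, fewer cells of a type and less RNA per cell cannot be told apart. The neutrophil precursor markers Mpo (18.38 to 18.44 in K313 and 18.36 to 18.51 in WT), Prtn3 and Elane were high on all 6 arrays. As a list, neutrophil precursor markers were higher in K313. Of 11 measured, 6 rose and 1 fell, beside 3.77% called higher and 3.97% lower over all probe sets. Their mean log2 level was 12.04 to 12.57 in K313 and 10.27 to 10.66 in WT. The collagenase Mmp8 rose by 6.99 ± 0.43, the alarmin S100a8 by 4.0 ± 0.63 and the granule protease Ctsg by 1.75 ± 0.16, and the receptor Csf3r fell by 1.03 ± 0.22 on the log2 scale (limma adjusted p = 2.45e-06, 0.00182, 3.45e-05 and 0.0120). With a robust prior and an intensity trend, S100a8 and S100a9 did not pass (0.0583 and 0.0641), and Csf3r did so without K313 replicate 2 (0.0613). The part of this shift in the cytokine results was not tested. Cpa3 and Hdc, genes of mast cells and basophils, were high as well (Cpa3 at 16.72 to 16.92 in K313 and 17.17 to 17.33 in WT). Cebpa itself differed by -0.51 ± 0.21 (SE; limma adjusted p = 0.212), and the labels do not say whether its probe set sees the introduced forms. Hoxb8, the factor that holds the progenitors immature, read 8.06, 8.53 and 8.42 in K313, against 12.45, 13.49 and 12.99 in WT (-4.64 ± 0.25; adjusted p = 1.15e-06), and its part in the cytokine results was not tested. The groups also differed in Y-linked transcripts: Eif2s3y read 12.37, 12.09 and 12.24 in K313, against 3.11, 2.93 and 7.03 in WT replicates 1, 2 and 3. WT replicate 3 stood apart from the other WT arrays in this gene and had the highest correlation of the WT arrays with K313 (up to 0.9891 over all probe sets). Results are therefore also given without it, which does not remove the difference between the groups. All 3 Y-linked genes measured were called higher in K313, and the Eif2s3y difference went from 7.88 to 9.21 without WT replicate 3. The sample titles name no sex or donor of the cells. The C/EBPα form and such a difference between the cells cannot be told apart in these data.

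Of the 10 cytokine genes, 5 fell in K313 (Il6, Tnf, Csf1, Il4 and Tgfb1), 0 rose and 5 did not pass the threshold (limma, adjusted p under 0.05 over all 22206 probe sets). At an unadjusted p under 0.05 the counts were the same, 5 lower and 0 higher. The share of all probe sets at that looser threshold was not taken. Counts at it, here and below, therefore have no background share to be read against, and they are not given for every list. At the adjusted threshold, 7.75% of all probe sets were called, 3.97% lower and 3.77% higher. The median change of the 10 genes was -0.61, and that of all probe sets was 0.02. The values of K313 lay wholly below those of WT in 6 of the 10 genes, which was true of 10.9% of all probe sets. The same 5 genes passed in each of the 12 alternatives run, including the fit without WT replicate 3.

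**Figure D1:**
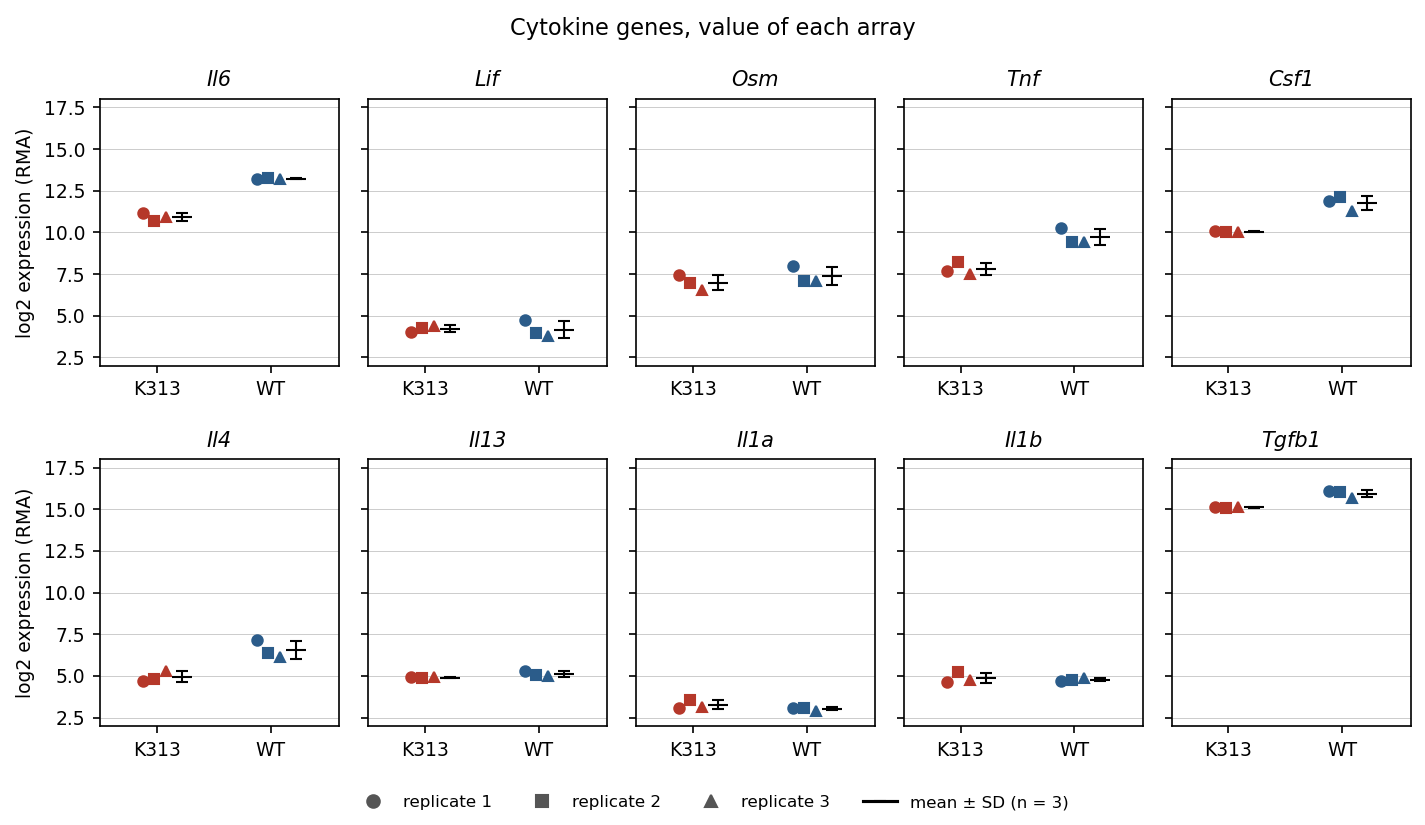
Log2 expression of the 10 cytokine genes on each array, K313 (red) left of WT (blue); symbols mark the replicate and black marks give the mean ± SD of 3 arrays. Il6, Tnf, Csf1, Il4 and Tgfb1 have all K313 arrays below all WT arrays by a clear step; Il13 does so by a small one, and the groups overlap in Lif, Osm, Il1a and Il1b. Heights of different genes are not comparable, since each probe set has its own response.

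Il6 encodes the cytokine that drives the acute phase response and B cell maturation. It read 11.17, 10.68 and 10.91 on the K313 arrays, against 13.21, 13.25 and 13.18 on the WT arrays. All K313 values lay more than 2 log2 units below the lowest WT value, and the WT arrays, replicate 3 included, were nearly alike. The mean was 10.92 ± 0.25 in K313 and 13.21 ± 0.04 in WT (SD, n = 3 each), a change of -2.29 ± 0.17 (SE; limma adjusted p = 6.48e-06; 95% interval -2.66 to -1.92), or 4.90-fold lower in K313. Without WT replicate 3 the change was -2.31.

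Tnf, the gene of tumour necrosis factor, read 7.66, 8.24 and 7.52 in K313, against 10.29, 9.45 and 9.42 in WT. K313 replicate 2 was the highest of its group and WT replicate 1 the highest of all, and the groups did not overlap. The change was -1.91 ± 0.26 (SE; limma adjusted p = 0.000682; 95% interval -2.49 to -1.34), or 3.77-fold lower, and -2.06 without WT replicate 3. Its chromosomal neighbours Ltb (-0.24 ± 0.16) and Lta (0.18 ± 0.17), which encode the related lymphotoxins, did not pass (limma adjusted p = 0.509 and 0.671). Lst1, a leukocyte-specific gene on the far side of Ltb, fell with Tnf (-1.29 ± 0.18, adjusted p = 0.000731).

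Csf1 read 10.06, 10.05 and 10.05 in K313, against 11.89, 12.14 and 11.30 in WT. The K313 arrays were nearly identical, while WT replicate 3 was the lowest of its group and lay nearest to K313. The mean was 10.05 ± 0.01 in K313 and 11.78 ± 0.43 in WT (SD, n = 3 each). The change of -1.72 ± 0.21 (SE; limma adjusted p = 0.000268; 95% interval -2.18 to -1.26) was 3.30-fold lower in K313, and -1.96 without WT replicate 3.

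Tgfb1, whose product limits inflammation and slows the division of progenitors, showed the smallest change among the 5 genes that fell. It read 15.16, 15.07 and 15.11 in K313, against 16.08, 16.06 and 15.68 in WT. Both groups lay near the top of the measured range (98.4th percentile of probe set means). WT replicate 3 was again the nearest to K313. The change was -0.83 ± 0.16 (SE; limma adjusted p = 0.00885; 95% interval -1.19 to -0.46), or 1.77-fold lower, and -0.96 without WT replicate 3.

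Il4, the cytokine of type 2 immunity that basophils and mast cells make, read 4.70, 4.84 and 5.31 in K313, against 7.16, 6.38 and 6.12 in WT. The K313 values were near background and the WT values a little above it. The change was -1.60 ± 0.26 (SE; limma adjusted p = 0.00250; 95% interval -2.18 to -1.02), 3.04-fold lower in K313, and -1.82 without WT replicate 3. Il13, the next measured gene on the chromosome and a cytokine of the same function, read 4.92, 4.86 and 4.93 in K313, against 5.30, 5.03 and 4.97 in WT. The groups were apart by a small step, and the change of -0.20 ± 0.16 did not pass (adjusted p = 0.610; 95% interval -0.54 to 0.15); both groups were near background. Septin8, 2 measured genes to the other side of Il4, fell by 1.76 ± 0.22 on the log2 scale (limma adjusted p = 0.000393), while Kif3a (-0.56 ± 0.26) and Rad50 (-0.08 ± 0.22) did not pass (adjusted p = 0.303 and 0.913). In all, 2 of the 20 measured neighbours of the 5 genes, taken 2 to each side, were called, both lower. Over all probe sets 7.75% were called, 3.97% lower, and a shared change of a locus was not tested. The neighbours of Il6 (Gm5129, Dnajb6, Tyms and 3110082J24Rik), of Csf1 (Ubl4b, Ahcyl1, Eps8l3 and Gstm5) and of Tgfb1 (Tmem91, B9d2, Ccdc97 and Hnrnpul1), and Nfkbil1 near Tnf, had changes of -0.48 to 0.33 and did not pass (lowest limma adjusted p = 0.195).

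Markers of basophils and mast cells moved in part with Il4. Of 13 measured, 7 fell, 1 rose and 5 did not pass. The mean log2 level over the list was 9.65 to 9.94 in K313, against 10.34 to 10.70 in WT. The falls numbered 5 without K313 replicate 2 or 3, where Hdc and Ltc4s were lost. They numbered 6 with array weights, the replicate block or any other array left out. Cpa3, Kit, Ms4a2 and Tpsb2 did not pass (changes of -0.42, -0.62, 0.17 and 0.07), though Cpa3 and Kit did in 1 alternative each. Counts of the marker lists stand beside 3.97% called lower and 3.77% higher over all probe sets. Mcpt8, a basophil protease, changed by -1.63 ± 0.22, and Cd200r3, a receptor of basophils and mast cells, by -4.03 ± 0.23, whereas Prss34, another basophil protease, rose by 3.98 ± 0.21 (limma adjusted p = 0.000649, 1.60e-06 and 1.16e-06). Fcer1a, the IgE receptor chain that defines both cell types, was near background in K313 (3.52 to 3.72) and in WT (3.46 to 3.87). Eosinophil markers moved the same way: of 7 measured, 4 fell and 1 rose (median change -0.92), with a mean log2 level of 8.70 to 9.17 in K313 and 9.48 to 9.88 in WT. The receptor chain Il5ra changed by -2.88 ± 0.21, the granule proteins Prg2 and Prg3 by -1.77 ± 0.29 and -1.04 ± 0.24, and the lectin Siglecf by -0.92 ± 0.18 (adjusted p = 7.35e-06, 0.00227, 0.0216 and 0.00968), while Alox15 rose. The falls numbered 2 without K313 replicate 2, where Prg3 and Siglecf were lost. Epx, the eosinophil peroxidase, did not pass and read 5.26 to 6.05 in K313 and 5.62 to 6.30 in WT. T cells, the other main source of IL-4, had 1 marker of 8 higher and 1 lower. Cd3g, a chain of the T cell receptor complex, read 3.06, 3.17 and 3.54 in K313, against 5.20, 4.22 and 4.83 in WT (-1.49 ± 0.24, limma adjusted p = 0.00230). It was called in all 12 alternatives, but its values were near background in both groups. The rise, Cd28, missed the threshold without K313 replicate 1 or 3 (0.0532 and 0.0617). Cd3e, the partner of Cd3g, was near background at 3.31 to 3.70 in K313 and 3.09 to 3.51 in WT. The part of these cell types in the Il4 result was not tested.

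The promoters of the 5 genes that fell are shown because the study varied a DNA-binding factor and these genes moved together. Windows of 250 bases before the annotated start were taken from RefSeq on build GRCm38.p6 and were found for 9 of the 10 genes; they are printed 5′ to 3′ on the strand of the gene. Capitals mark matches to the C/EBP motif TTNNGCAA or the 10-base NF-kB motif, which is GGG, any pair of bases and TTTCC, on either strand. The windows lie at chr5:30012864-30013113 (plus strand, Il6), chr17:35202008-35202257 (minus strand, Tnf), chr3:107760470-107760719 (minus strand, Csf1), chr7:25686752-25687001 (plus strand, Tgfb1) and chr11:53618666-53618915 (minus strand, Il4).
Il6: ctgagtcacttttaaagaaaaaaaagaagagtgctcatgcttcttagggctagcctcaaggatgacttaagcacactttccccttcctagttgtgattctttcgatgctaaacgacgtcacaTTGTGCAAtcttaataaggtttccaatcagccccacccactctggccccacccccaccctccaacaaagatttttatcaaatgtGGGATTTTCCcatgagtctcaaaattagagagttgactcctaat
Tnf: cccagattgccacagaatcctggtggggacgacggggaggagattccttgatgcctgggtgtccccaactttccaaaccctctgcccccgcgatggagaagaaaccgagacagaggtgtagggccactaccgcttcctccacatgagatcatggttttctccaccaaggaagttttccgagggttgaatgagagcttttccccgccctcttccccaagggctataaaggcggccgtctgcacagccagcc
Csf1: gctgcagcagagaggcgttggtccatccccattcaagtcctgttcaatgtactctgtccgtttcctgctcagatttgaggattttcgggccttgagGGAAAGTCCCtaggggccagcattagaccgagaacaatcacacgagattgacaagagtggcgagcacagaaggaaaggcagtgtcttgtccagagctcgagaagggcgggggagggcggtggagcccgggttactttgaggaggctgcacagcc
Tgfb1: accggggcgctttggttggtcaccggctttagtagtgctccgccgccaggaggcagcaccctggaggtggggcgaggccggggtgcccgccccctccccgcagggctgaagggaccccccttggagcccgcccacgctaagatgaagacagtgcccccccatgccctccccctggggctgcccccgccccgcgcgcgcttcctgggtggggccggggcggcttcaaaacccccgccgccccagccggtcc
Il4: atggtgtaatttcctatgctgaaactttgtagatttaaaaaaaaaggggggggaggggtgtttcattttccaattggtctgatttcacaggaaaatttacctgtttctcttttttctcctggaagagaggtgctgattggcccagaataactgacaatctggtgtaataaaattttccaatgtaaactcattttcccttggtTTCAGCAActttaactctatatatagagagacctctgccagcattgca
The Il6 window held a C/EBP match, TTGTGCAA, at 128 to 121 bases before the start and an NF-kB match, GGGATTTTCC, at 44 to 35 bases. In Il4 a C/EBP match, TTCAGCAA, lay at 48 to 41 bases, and in Csf1 an NF-kB match on the opposite strand at 154 to 145 bases. The Tnf and Tgfb1 windows held neither. A C/EBP match was thus in 2 of the 5 windows and in 9.56% of all 32851 windows of the table, and an NF-kB match in 2 of the 5 and in 1.41% of all windows. Neither was in the windows of Il13, Il1a, Il1b or Lif. Of 3 further motifs searched on both strands, the AP-1 motif TGANTCA was in 1 of the 5 (Il6) and in 6.75% of all windows, and the GATA motif AGATAA was in 0 of the 5 and in 9.99% of all. The NFAT motif TTTTCC was in 3 of the 5 (Il6, Il4 and Tnf) and in 20.4% of all; its match in Il6 lies inside the NF-kB match. The motifs were chosen after the expression values were seen. A match is a stretch of letters, not a measured binding site.

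Among the genes that did not pass, Osm, an IL-6 family cytokine of activated myeloid cells, was above background. It read 7.44, 6.98 and 6.53 in K313, against 7.98, 7.11 and 7.06 in WT. The groups overlapped, and the change was -0.40 ± 0.28 (SE; limma adjusted p = 0.542; 95% interval -1.02 to 0.22). Lif, the neighbour of Osm and a cytokine that keeps stem cells undifferentiated, read 4.03, 4.25 and 4.41 in K313, against 4.73, 3.95 and 3.81 in WT, near background in both. Its change of 0.07 ± 0.24 did not pass (adjusted p = 0.936) and turned to -0.11 without WT replicate 3.

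The genes of both forms of IL-1 were near background in both groups. Il1a, whose product is an alarm signal of damaged cells, read 3.07, 3.57 and 3.16 in K313, against 3.10, 3.05 and 2.92 in WT (change 0.24 ± 0.17; limma adjusted p = 0.552). Il1b, whose product is cut and released by inflammasomes, read 4.66, 5.22 and 4.77 in K313, against 4.68, 4.77 and 4.86 in WT (change 0.11 ± 0.18; adjusted p = 0.831). K313 replicate 2 was the highest array for both genes, and the groups overlapped in both. No difference was detectable at these levels, which does not show that the transcripts were absent.

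**Figure D2:**
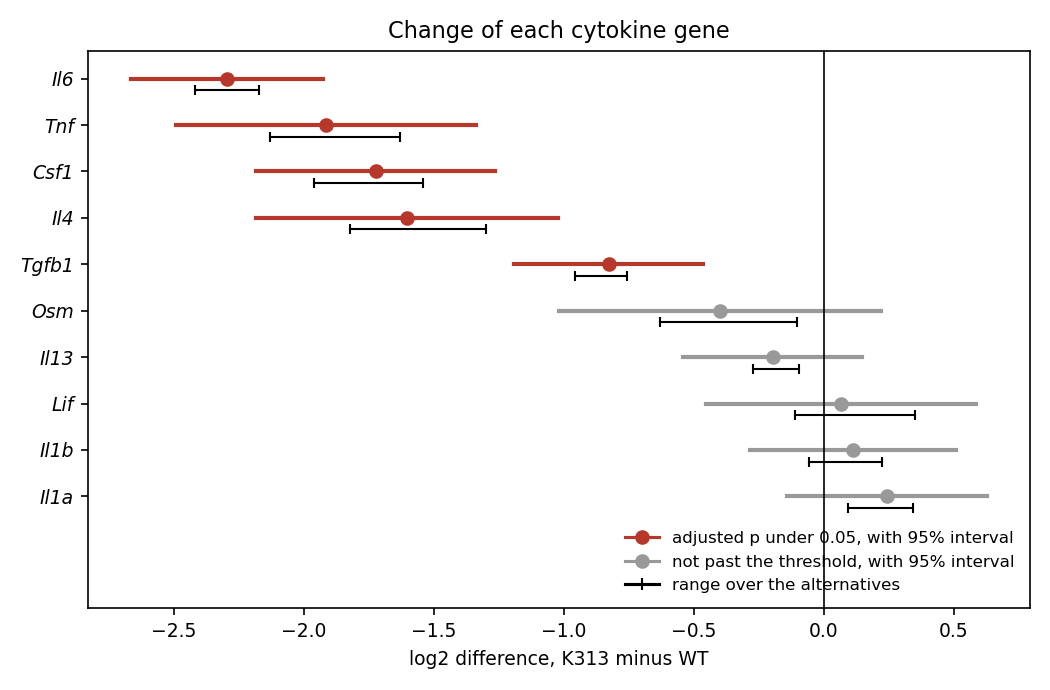
Log2 difference, K313 minus WT, of each cytokine gene with its 95% interval (coloured line, limma, 3 arrays per group) and the range over the alternatives (black). Il6 is farthest from 0 at -2.29 and the intervals of Il6, Tnf, Csf1, Il4 and Tgfb1 stay below 0, while those of Osm, Il13, Lif, Il1b and Il1a include it.

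The genes whose pattern over the 6 arrays was most like that of each fallen cytokine were found by the root mean square difference of values centred on their own mean. For Il6 they were Tiam2 (0.112 log2 units), P2rx4 (0.123) and Arhgap6 (0.135); P2rx4 encodes an ATP-gated ion channel. For Tnf they were Gfi1b (0.201), S100a10 (0.231) and Tpmt (0.240), and for Csf1 Fmnl1 (0.148), the IL-1 decoy receptor Il1r2 (0.165) and Neurl3 (0.168). For Tgfb1 they were Vezf1 (0.0576), Itm2c (0.0590) and Glod5 (0.0636). For Il4 they were Card19 (0.0775), the chemokine receptor Ccr8 (0.182) and Ifi30 (0.194). Tiam2 read 6.20, 5.71 and 5.97 in K313, against 8.37, 8.33 and 8.53 in WT, and Card19 read 7.57, 7.80 and 8.39 in K313, against 10.06, 9.30 and 8.96 in WT. This is likeness among 6 arrays in 2 groups, and with 22206 probe sets some genes will be alike.

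Receptor chains for these cytokines went both ways, beside 3.77% called higher and 3.97% lower over all probe sets. Of 16 measured, 4 rose (Il6ra, Il6st, Il1rap and Tnfrsf1b), 3 fell (Il1r2, Tgfbr1 and Il4ra) and 9 did not pass; their median change was 0.11. The chains for IL-6 rose while Il6 fell. Il6ra, the chain that binds IL-6, read 9.64, 9.18 and 9.84 in K313, against 7.12, 6.68 and 7.15 in WT, a change of 2.57 ± 0.21 (SE; limma adjusted p = 1.27e-05). Il6st, which encodes the shared chain gp130, read 10.81, 10.46 and 10.17 in K313, against 5.83, 5.20 and 7.33 in WT. WT replicate 3 stood above the other WT arrays and still well below K313. The change in Il6st was 4.36 ± 0.42 (adjusted p = 5.11e-05) and 4.96 without WT replicate 3. The partner chains of the other family members, Lifr (0.06 ± 0.27) and Osmr (0.24 ± 0.15), were near background and did not pass (adjusted p = 0.953 and 0.475).

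The TNF receptor Tnfrsf1b read 11.09, 10.97 and 10.97 in K313, against 9.82, 9.22 and 9.80 in WT, and rose by 1.40 ± 0.19 (limma adjusted p = 0.000609). Tnfrsf1a, the receptor with a death domain, differed by 0.25 ± 0.25 (adjusted p = 0.705). For IL-1, the accessory chain Il1rap rose by 2.18 ± 0.26 and the decoy receptor Il1r2 changed by -1.52 ± 0.18 (adjusted p = 0.000214 and 0.000267), while the signalling receptor Il1r1 was near background (-0.02 ± 0.17). Csf1r, the receptor of Csf1, read 5.05, 4.77 and 6.15 in K313, against 5.74, 5.73 and 5.73 in WT. K313 replicate 3 lay above and the other K313 arrays below all WT arrays; the change was -0.41 ± 0.29 (adjusted p = 0.552) and -0.82 without K313 replicate 3, where it passed (0.0225).

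For TGF-β, the signalling receptor Tgfbr1 read 11.05, 11.00 and 11.00 in K313, against 11.99, 12.10 and 11.86 in WT, and changed by -0.97 ± 0.15 (limma adjusted p = 0.00168). Its ligand gene Tgfb1 fell too. Tgfbr2, which binds the ligand first, differed by -0.69 ± 0.22 (adjusted p = 0.106) and passed without WT replicate 1 (-0.94; 0.0121). Il4ra, shared by the receptors for IL-4 and IL-13, changed by -0.69 ± 0.15 (adjusted p = 0.0153). It missed the threshold when WT replicate 3 (0.0518) was left out, and likewise K313 replicate 1 (0.0666) or 2 (0.0517).

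**Figure D3:**
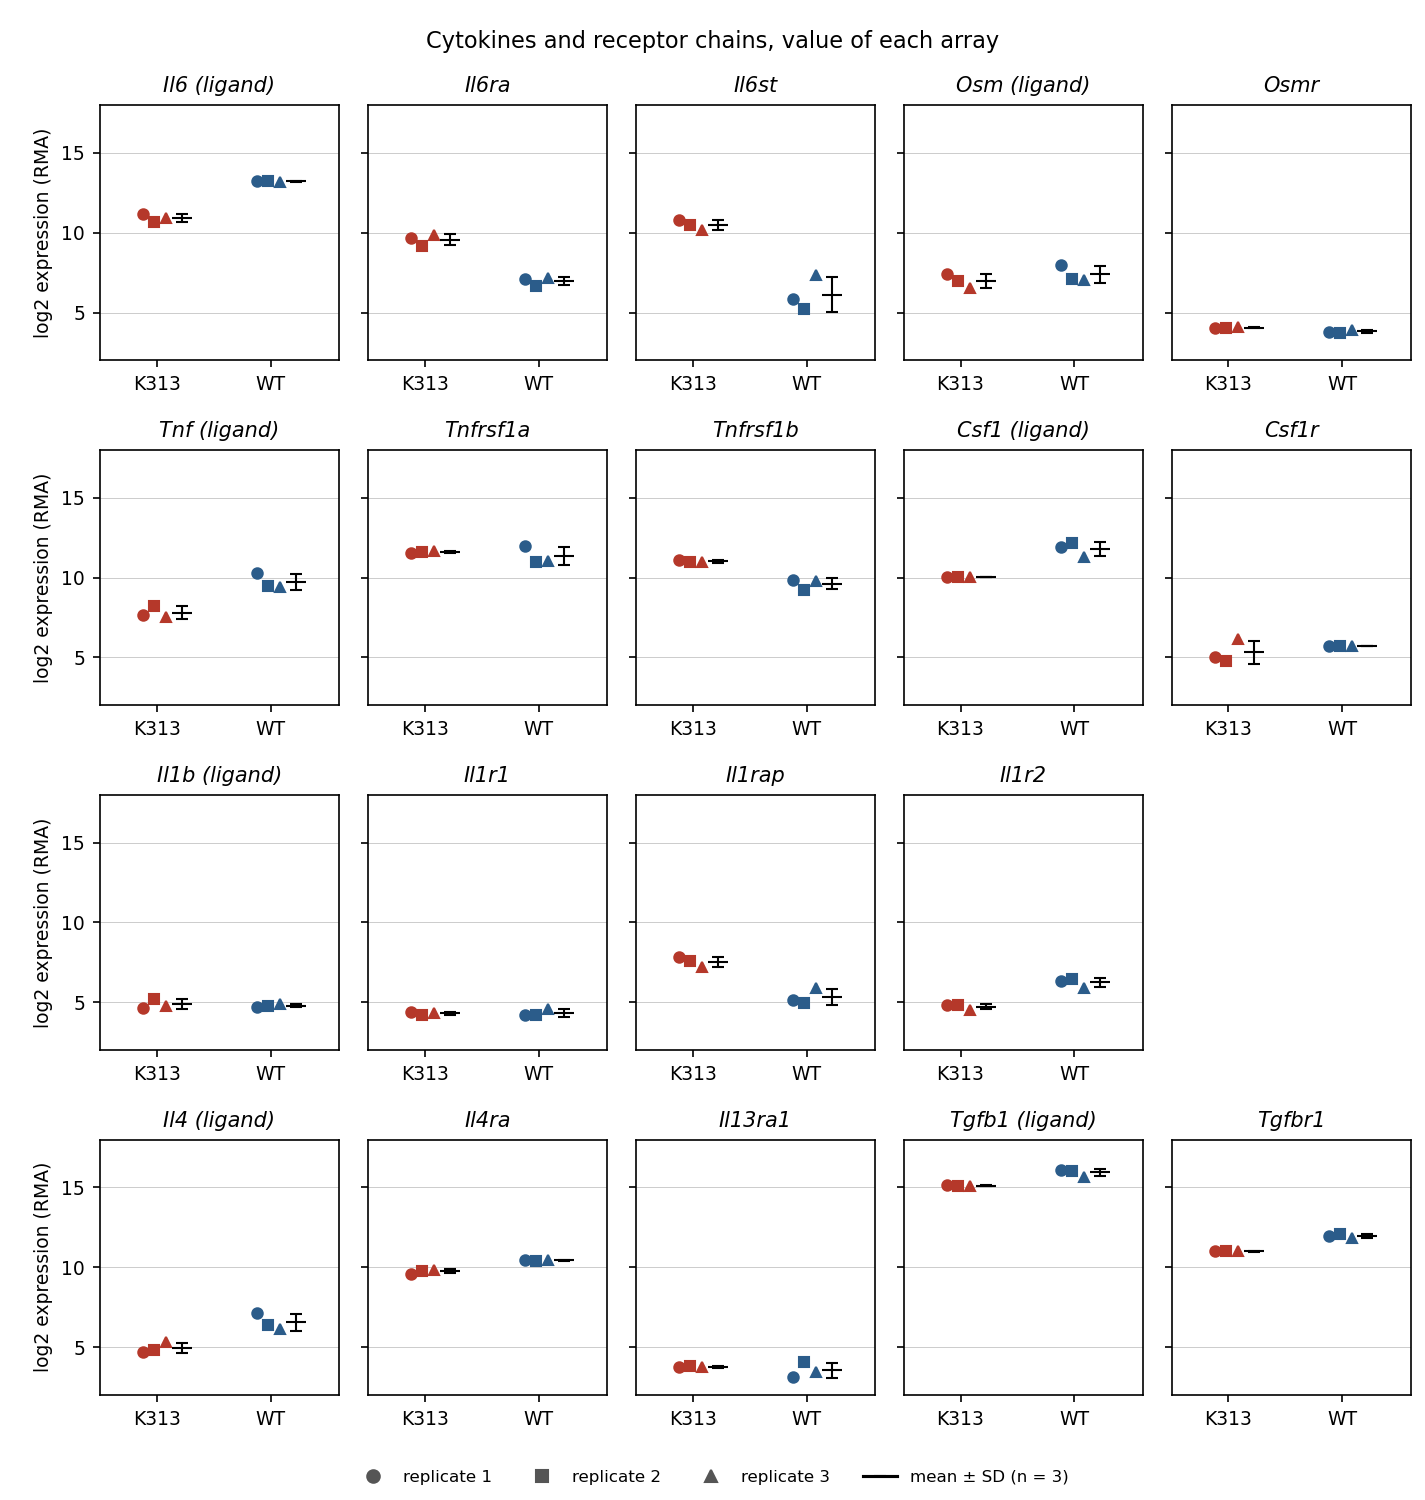
Log2 expression of 7 cytokine genes and of receptor chains that bind their products, per array, K313 (red) left of WT (blue), with mean ± SD of 3 arrays in black. Il6 is lower in K313 while Il6ra and Il6st are higher; Tnf is lower while Tnfrsf1b is higher; Tgfb1 and Tgfbr1 are both lower. Heights of different genes are not comparable.

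Of 19 genes for the maturation and release of cytokines, 5 rose, 1 fell and 13 did not pass (median change 0.08). Over all probe sets, 3.77% were called higher and 3.97% lower. Caspase-1, Casp1, which cuts the IL-1β precursor, fell by 0.93 ± 0.17 on the log2 scale, whereas its sensor Nlrp3 rose by 1.68 ± 0.28 to a level still low (5.08 to 6.22 in K313, against 3.73 to 4.42 in WT; limma adjusted p = 0.00523 and 0.00298). The neutrophil proteases Elane (3.29 ± 0.28) and Prtn3 (0.94 ± 0.17), which can process IL-1 family members outside the cell, rose, as did Thbs1, an activator of latent TGF-β (3.44 ± 0.33). Casp4 rose by 0.91 ± 0.22 (adjusted p = 0.0243) but missed the threshold on leaving out WT replicate 1 (0.0905) or 2 (0.0696), or K313 replicate 1 (0.0600) or 3 (0.0979). The TNF-releasing protease Adam17 differed by 0.24 ± 0.24 (adjusted p = 0.708; named after its value was seen).

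Inhibitors of cytokine signalling and factors that destroy cytokine mRNA moved in both directions, beside 3.77% called higher and 3.97% lower over all probe sets. Of 19, 3 rose, 7 fell and 9 did not pass (median change -0.42). The falls numbered 4 without K313 replicate 1 or WT replicate 1, and 3 without K313 replicate 2 or K313 replicate 3. Tnfaip3, which ends NF-kB signals and is itself an NF-kB target, read 7.05, 6.37 and 6.78 in K313, against 8.98, 7.96 and 8.49 in WT (-1.74 ± 0.26; limma adjusted p = 0.00123). Dusp1, a phosphatase that switches off stress kinases, fell by 1.95 ± 0.31 and the RNA-binding factor Zfp36l2 fell by 0.80 ± 0.15. Zfp36 (-0.78 ± 0.18) and Zc3h12a (-0.97 ± 0.23), named after their values were seen because they degrade Tnf and Il6 mRNA, fell as well (adjusted p = 0.0225 and 0.0231). Zfp36 was lost on leaving out WT replicate 1 (0.0719) or 3 (0.0775), or K313 replicate 2 (0.103) or 3 (0.0631), and Zc3h12a without any 1 K313 array (0.0521 to 0.0905).

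The 3 rises on that list were Socs2, Il1rn and Irak3. Socs2, which dampens receptors that signal through STAT5, read 12.84, 13.07 and 12.94 in K313, against 5.11, 6.0 and 7.98 in WT (6.59 ± 0.54; limma adjusted p = 1.36e-05). Its change was 7.40 without WT replicate 3 and 5.96 without WT replicate 1. Il1rn, the natural blocker of the IL-1 receptor, read 5.66, 4.96 and 4.87 in K313, against 3.43, 3.67 and 3.65 in WT, a rise of 1.58 ± 0.21 from a level near background (adjusted p = 0.000630). Irak3, an inhibitor of Toll-like and IL-1 receptor signals, rose by 1.03 ± 0.23 (adjusted p = 0.0153) and missed the threshold without K313 replicate 1 (0.0648) or K313 replicate 3 (0.0611). Socs3, the inhibitor that IL-6 induces, was near background at 3.25 to 3.71 in K313 and 3.14 to 3.59 in WT.

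Transcription factors that act on cytokine genes were read beside 3.97% called lower and 3.77% higher over all probe sets. Of 26 measured, 4 fell, 0 rose and 22 did not pass (median change -0.02). At an unadjusted p under 0.05, 5 were higher and 6 lower, with no share of all probe sets taken at that threshold. Without K313 replicate 1, Irf8 was called higher (0.72, limma adjusted p = 0.0397) and Egr1 lower (-1.22, limma adjusted p = 0.0387). Egr1 was also called lower with the replicate block (limma adjusted p = 0.0240), where the falls numbered 5. Gata1 read 7.27, 7.56 and 6.58 in K313, against 11.08, 10.66 and 10.73 in WT (-3.69 ± 0.24; limma adjusted p = 3.31e-06), and Gata2 changed by -1.47 ± 0.19 (adjusted p = 0.000441). Both drive mast cell and basophil genes, and GATA2 is known to act on the Il4 locus in those cells. The part of Gata1 and Gata2 in the Il4 result was not tested. The AP-1 subunit Jund fell by 1.19 ± 0.18, and Nfatc1, a calcium-dependent activator of cytokine genes, fell by 0.80 ± 0.21 (adjusted p = 0.00156 and 0.0366). Nfatc1 was lost with quantile normalization (0.0736) and without any array except WT replicate 3 (0.0594 to 0.109). Cebpd and Cebpb, relatives of Cebpa named after their values were seen, differed by 0.38 ± 0.16 and 0.12 ± 0.15 (limma adjusted p = 0.235 and 0.782).

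Target genes of the routes gave mixed counts. Those at the adjusted threshold were read beside 3.77% called higher and 3.97% lower over all probe sets. Of 16 probe sets of NF-kB targets, 3 fell and 0 rose: the chemokine Ccl3 (-3.32 ± 0.29), Tnfaip3, and Ptgs2, the inducible prostaglandin synthase (-2.0 ± 0.34; limma adjusted p = 2.57e-05, 0.00123 and 0.00343). At an unadjusted p under 0.05 they numbered 3 lower and 1 higher, with no share of all probe sets taken at that threshold. Ccl3 read 7.73, 7.0 and 7.22 in K313, against 11.21, 10.72 and 9.97 in WT, whereas Ccl4 (0.39 ± 0.17) and Nfkbia (0.25 ± 0.15) did not pass (adjusted p = 0.267 and 0.446). Of 10 STAT3 targets, 2 rose (Il6ra and the kinase Pim1, 0.82 ± 0.16) and 2 fell (Il4ra and the prothrombinase Fgl2, -2.92 ± 0.22). The falls numbered 1 without K313 replicate 1, K313 replicate 2 or WT replicate 3, where Il4ra was lost. Some genes are on more than 1 list, so the counts of the lists are not independent. Il6ra and Il4ra are also receptor chains, Il4ra is also a STAT6 target, and Tnfaip3 is also on the list of inhibitors.

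Of 14 STAT6 targets, 3 rose and 2 fell. Chil3, a chitinase-like protein, read 12.83, 14.00 and 14.64 in K313, against 3.58, 3.26 and 8.78 in WT, and changed by 8.62 ± 1.14 (limma adjusted p = 0.000544). The change was 10.40 without WT replicate 3, 7.80 without WT replicate 1 and 7.64 without WT replicate 2, and with an intensity trend and robust prior it missed the threshold (0.0777). The lectin Clec10a (1.12 ± 0.15) and the lipoxygenase Alox15 (1.67 ± 0.28) rose, and Il4ra and the chemokine Ccl17 (-0.77 ± 0.18, near background in K313) fell. Ccl17 was lost on leaving out WT replicate 1 (0.0764) or 3 (0.0719), or K313 replicate 2 (0.0776) or 3 (0.0835), and without WT replicate 3 or K313 replicate 2 the falls numbered 0. The STAT6 targets Arg1, Retnla and Mrc1 of macrophages did not pass (Arg1 -0.02 ± 0.15, Retnla -0.15 ± 0.20, Mrc1 -0.27 ± 0.34; all 3 named after their values were seen).

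Of 13 SMAD targets, 1 rose and 2 fell: Tgfbi, a secreted matrix protein (2.46 ± 0.21), the inhibitor of DNA binding Id2 (-3.75 ± 0.39) and the cell cycle inhibitor Cdkn1a (-1.30 ± 0.21). At an unadjusted p under 0.05 they numbered 1 higher and 6 lower (Id2, Cdkn1a, Smad6, Ski, Id1 and Skil). No share of all probe sets was taken at that threshold. K313 lay wholly below WT in 8 of the 13, which was true of 10.9% of all probe sets. The falls past the threshold numbered 4 with the arrays shifted to a common median, which added Smad6 (limma adjusted p = 0.0424) and Ski (0.0497). The median change of the list was -0.34. Among 38 other cytokine ligands, 2 fell and 0 rose (median change 0.03). They were Il15, which sustains lymphocytes (-0.74 ± 0.18; adjusted p = 0.0262), and the progenitor growth factor Flt3l (-0.63 ± 0.17; adjusted p = 0.0443). At an unadjusted p under 0.05 they numbered 2 lower and 2 higher, again with no share of all probe sets. The count past the threshold was 0 with the replicate block and without WT replicate 1, K313 replicate 2 or K313 replicate 3, and 1 with an intensity trend and robust prior and without WT replicate 2, WT replicate 3 or K313 replicate 1. On average this list lay near background, with a mean log2 level of 4.44 to 4.57 in K313 and 4.40 to 4.56 in WT. The filter on low signal left 17 of its 38 probe sets and 9 of the 10 cytokine genes. Beside this list, the 10 cytokine genes had 5 called, both sets being read against 3.97% called lower over all probe sets. No test compared the lists, and the part of signal level in this contrast was not tested.

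**Figure D4:**
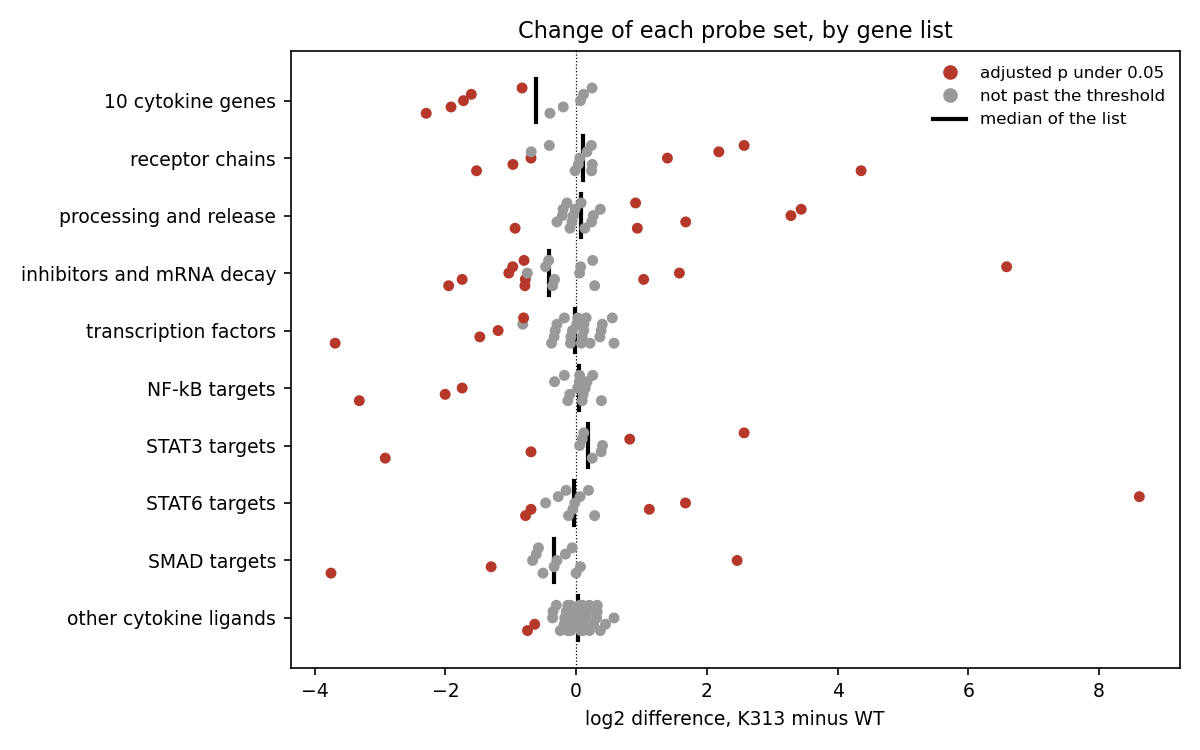
Log2 difference, K313 minus WT, of every probe set on each gene list, with those past the threshold in red and a black line at the list's median. The cytokine genes have 5 red points, all left of 0, and a median of -0.61. Receptor chains and release genes have red points on both sides. Most other cytokine ligands, many of them near background, lie close to 0.

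Monocyte and macrophage markers, whose cells are a source of Tnf, Il6 and Il1b and a target of Csf1, moved in part the other way. Of 8 measured, 5 rose and 2 fell, beside 3.77% called higher and 3.97% lower over all probe sets. The mean log2 level over the list was 9.51 to 9.82 in K313 and 8.05 to 8.52 in WT. The rises numbered 3 without WT replicate 1, WT replicate 3 or K313 replicate 2, and the falls 1 with the replicate block and without WT replicate 2, WT replicate 3 or K313 replicate 2. Cd14 read 9.52, 9.62 and 9.53 in K313, against 5.20, 4.24 and 5.89 in WT. Ms4a6c, F13a1, Ly6c2 and Ccr2 rose as well (log2 changes of 4.32, 2.95, 1.77 and 0.87). Cx3cr1 and Adgre1 fell (-2.04 and -0.78), and Csf1r did not pass. Ccr2 missed the threshold in 8 of the 12 alternatives, Adgre1 in 5, Ly6c2 in 4 and Cx3cr1 in 0. Markers of stroma, another source of Il6 and Csf1, had 0 higher and 2 lower of 6 (Thy1 and Pdgfrb; Pdgfrb missed the threshold without K313 replicate 1, at 0.0535, or K313 replicate 3, at 0.0611), and Col1a1, Col1a2, Col3a1 and Dcn were near background in both groups. The mean log2 level of the stromal list was 4.76 to 4.89 in K313 and 5.31 to 5.60 in WT. Its counts stand beside the same shares of all probe sets. The part of these cell types in the cytokine results was not tested.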

How the data were processed

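The deposited table holds log2 expression values per probe set for 6 arrays, made by the authors with RMA in Transcriptome Analysis Console, per the submitters' processing notes; the sources used here do not give a genome build for the probe sets. Array images were not used, so background correction and summarisation were not varied. All columns were those of the 6 samples, with 0 columns of other samples. Of the 22206 probe sets, 19572 had 1 gene symbol in the platform annotation and 2634 had none; all 19572 matched a RefSeq gene.

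K313 was set against WT with limma 3.58.1 in R 4.3.3 (lmFit, eBayes), with Benjamini-Hochberg adjustment over all 22206 probe sets and a threshold of 0.05. Intervals are 95% and cover each probe set alone; 3 arrays per group limit the precision, and the median SE was 0.179. On simulated data with 22206 probe sets, 14% of changes of 0.5, 92% of changes of 1 and 100% of changes of 2 log2 units were recovered, with 14 false calls among 167.

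Members, gene lists and tests were chosen with earlier results of these data known. Beside the members, the text names up to 5 genes of each list with the smallest p and all called genes where their count is 5 or fewer, marker genes, the 3 most alike genes and the 2 nearest measured genes on each side of each fallen cytokine; other receptors, inhibitors and targets were named by their role after their values were seen. Il2rg, Nfkb1 and a few other listed genes were not analysed here. Alternatives were quantile normalization, arrays shifted to a common median, a filter removing the lowest 30% of probe sets, an intensity trend with robust prior, array weights, the replicate number as a block, and leaving out each array.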

Additional observations from a re-analysis of the deposited data

How the results depend on the processing

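The 5 called cytokine genes kept their direction and passed under all 12 alternatives. With 1 array left out, the change ranged from -2.42 to -2.17 for Il6, -2.13 to -1.63 for Tnf, -1.96 to -1.54 for Csf1, -1.82 to -1.30 for Il4 and -0.96 to -0.76 for Tgfb1, and the highest limma adjusted p over all alternatives was 0.043, for Tgfb1. Osm ranged from -0.63 to -0.10, Il13 from -0.26 to -0.10 and Il1a from 0.09 to 0.34, and none of these passed; the filter on low signal removed Il1a. Il1b and Lif, both near background, changed sign: Il1b ranged from -0.055 to 0.225 and was at -0.055 without K313 replicate 2, and Lif ranged from -0.11 to 0.35 and was at -0.01 with a common median, -0.04 without WT replicate 2, -0.11 without WT replicate 3 and -0.023 without K313 replicate 3; the cause was not tested. Probe sets called numbered 1720, with 1228 to 1791 over the alternatives, 1228 to 1465 with 1 array left out, and 1438 without WT replicate 3 and Y chromosome probe sets, an alternative chosen after seeing the data. Genes of the 9 lists called numbered 40 of 156 probe sets (25.6%, beside 7.75% of all probe sets), with 31 to 42 over the alternatives. The lists were chosen with earlier results of these data known, so the 2 shares cannot be compared as a test.

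Same-numbered replicates did not deviate together (correlations of -0.0617 to 0.0291 over 3 pairs), so the numbers were not taken to pair the samples. With the replicate block, 1546 probe sets were called, 5 cytokine genes and 39 list probe sets among them, and the limma adjusted p was 4.86e-05 for Il6, 0.00134 for Tnf, 0.000602 for Csf1, 0.00685 for Il4 and 0.0201 for Tgfb1. Signal over background limits Il1a, Il1b, Lif, Il13 and the K313 values of Il4.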
